A study of Mus musculus with 21 samples.

Results

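The mouse mitochondrial genome encodes 7 subunits of respiratory complex I, and their mRNAs, mt-Nd1, mt-Nd2, mt-Nd3, mt-Nd4, mt-Nd4l, mt-Nd5 and mt-Nd6, were followed through 21 brains. They were chosen by gene name, as 7 of the 16318 genes of the deposited table, after their levels were known to be lower in mice given HsTX1[R14A] and mt-Nd6 to be the lowest of them. Their differences between treatments are therefore described without a test. All 7 passed the filter on low counts, and the lowest count of any member in any mouse was 486.

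The samples were whole brains of SAMP8 mice, a naturally occurring senescence-accelerated line that carries no transgene, with 1 library per mouse. From 4 to 6 months of age, for 8 weeks, the animals were injected under the skin every other day. They received either phosphate-buffered saline (PBS, 6 females and 6 males) or 1 mg/kg of HsTX1[R14A] in PBS (3 females and 6 males), a peptide that blocks the potassium channel Kv1.3 and that the sample titles spell HxTX1[R14A]. All mice had undergone behavioral testing and were perfused with PBS before the brain was taken, and no mice of another strain entered these comparisons.

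Library totals ran from 14917174 to 47613792 estimated counts, and sex-linked transcripts fitted the labeled sex in 21 of 21 libraries. Markers of neurons, astrocytes, oligodendrocytes and microglia were present in every library, whereas the 4 muscle and liver markers in the table together reached at most 35.6 CPM (counts per 1000000 counts of the library, scaled by TMM). The headers name the libraries in 2 forms. The form beginning with SAMP8 covered 10 PBS and 5 HsTX1[R14A] mice, the form beginning with SAMP covered 2 PBS and 4 HsTX1[R14A] mice, and what a form marks is not stated in the sources used here. The libraries also differed in length slope, which is the change in log2 CPM, relative to the gene's mean over all mice, for each doubling of transcript length. It averaged -0.076 ± 0.161 (SD, n = 12) in PBS and 0.102 ± 0.119 (SD, n = 9) in HsTX1[R14A] libraries, so the treatment groups differed in the make-up of name forms and in length slope.

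Complex I (NADH:ubiquinone oxidoreductase) passes electrons from NADH to ubiquinone and pumps protons across the inner mitochondrial membrane. The mitochondrially encoded subunits are all in its membrane arm, while the nuclear genome supplies the remaining core subunits, the accessory subunits and the assembly factors. Both strands of the mitochondrial genome are transcribed by the polymerase Polrmt with the factor Tfam into long precursors, from which enzymes that cut at tRNAs release the mRNAs. In neurons, which depend heavily on oxidative phosphorylation, these mRNAs are among the most abundant transcripts.

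In the GRCm38 annotation the heavy-strand members are single exons on the plus strand of the mitochondrial genome (MT). mt-Nd1 runs from 2751 to 3707, mt-Nd2 from 3914 to 4951 and mt-Nd3 from 9459 to 9806. mt-Nd4l from 9877 to 10173 and mt-Nd4 from 10167 to 11544 share an overlap, and mt-Nd5 runs from 11742 to 13565. mt-Nd6, from 13552 to 14070, is the member on the minus strand. The first 60 bases of each coding sequence are shown with every G in capitals, since base composition sets mt-Nd6 apart from the others.
mt-Nd1: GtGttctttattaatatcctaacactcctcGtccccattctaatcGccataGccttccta
mt-Nd2: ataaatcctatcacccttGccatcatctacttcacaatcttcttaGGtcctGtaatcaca
mt-Nd3: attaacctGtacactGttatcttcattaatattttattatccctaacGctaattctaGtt
mt-Nd4l: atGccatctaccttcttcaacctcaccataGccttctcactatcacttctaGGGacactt
mt-Nd4: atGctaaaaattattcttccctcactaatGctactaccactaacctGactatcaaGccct
mt-Nd5: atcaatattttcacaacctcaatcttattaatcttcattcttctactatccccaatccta
mt-Nd6: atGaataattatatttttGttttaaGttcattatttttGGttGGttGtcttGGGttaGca
G made up 12 of the 60 bases in mt-Nd6 and from 0 (mt-Nd5) to 5 (mt-Nd1 and mt-Nd4l) in the others. Over the whole gene, mt-Nd6 held 28.1% G, 5.97% C and 43.7% T. The heavy-strand members held from 7.996% G in mt-Nd2 to 11.6% G in mt-Nd1.

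Neighboring members share bases, and reads from a shared stretch can be counted for either gene. The last 30 bases of mt-Nd5 and of mt-Nd6 are shown with their overlap of 14 bases in capitals. The capitals of one are the reverse complement of those of the other, because the genes face each other.
mt-Nd5: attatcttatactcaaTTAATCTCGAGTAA
mt-Nd6: tttattattatcgagaTTACTCGAGATTAA
The last 30 bases of mt-Nd4l and the first 30 of mt-Nd4 are shown with their overlap of 7 bases in capitals, which lies on the same strand and holds the start codon of mt-Nd4.
mt-Nd4l: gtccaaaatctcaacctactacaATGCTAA
mt-Nd4: ATGCTAAaaattattcttccctcactaatg
Whether strand was used in counting is not stated in the sources used here, so reads of the mt-Nd5 and mt-Nd6 overlap could not be separated. Most of mt-Nd6 lies outside this overlap. If strand was not used, however, reads of long precursors from the opposite strand could be counted for mt-Nd6 along its whole length. Their part in the mt-Nd6 counts was not tested.

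Levels between genes were compared as CPM per kilobase. In the PBS mice mt-Nd1, whose product sits where the membrane arm meets the ubiquinone site, had 12200 ± 3222 CPM per kilobase (SD, n = 12). mt-Nd4 had 10960 ± 2642 and mt-Nd2 9328 ± 2931 CPM per kilobase, both encoding antiporter-like proton-pumping subunits. mt-Nd5, the largest of these subunits, had 3087 ± 776.7 CPM per kilobase. The order within a mouse was stable, with mt-Nd1 above mt-Nd4 in 20 of 21 mice, mt-Nd4 above mt-Nd2 in 19 of 21 and mt-Nd2 above mt-Nd5 in 21 of 21. mt-Nd1 and mt-Nd4 nevertheless differed by less than their spread between mice. Below them came mt-Nd3, at 1553 ± 738.4 CPM per kilobase, and mt-Nd4l, at 765.8 ± 182.2 CPM per kilobase. mt-Nd6 was lowest in 21 of 21 mice, at 269.0 ± 190.2 CPM per kilobase in PBS mice, and mt-Nd1 exceeded it by between 22.9 and 230-fold per kilobase.

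The low places of mt-Nd3 and mt-Nd4l rested on how counts were assigned between near-identical genes. mt-Nd3 matches the pseudogene Gm28438, on chromosome 1 from 24612775 to 24613119 (minus strand, GRCm38), over 345 of its 348 bases at 99.7% identity. mt-Nd4l matches its neighbor Gm10222, from 24612407 to 24612700, over 294 of 297 bases at 100%. In the PBS mice Gm28438 had 1414, 2637 and 5561 CPM (lowest, median and highest), and mt-Nd3 received from 8.25 to 20.03% of the pair's counts. For mt-Nd4l and Gm10222 the share of the mitochondrial gene was 13.5 to 28.2%. Counts of both members are therefore uncertain. With each copy added to its member, a step chosen after seeing the data, mt-Nd3 had 10420 ± 4512 CPM per kilobase in PBS mice, within the spread of mt-Nd1, mt-Nd4 and mt-Nd2. mt-Nd4l with its copy had 3774 ± 1369 CPM per kilobase, within the spread of mt-Nd5. For mt-Nd4 and mt-Nd2 the copies in the table, Gm28439 and Gm13339, took little, since the members held at least 99.7% and 99.9% of the counts in every mouse. mt-Nd1 has no such match, and the genes that match mt-Nd5 and mt-Nd6 were not analysed here.

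**Figure D1:**
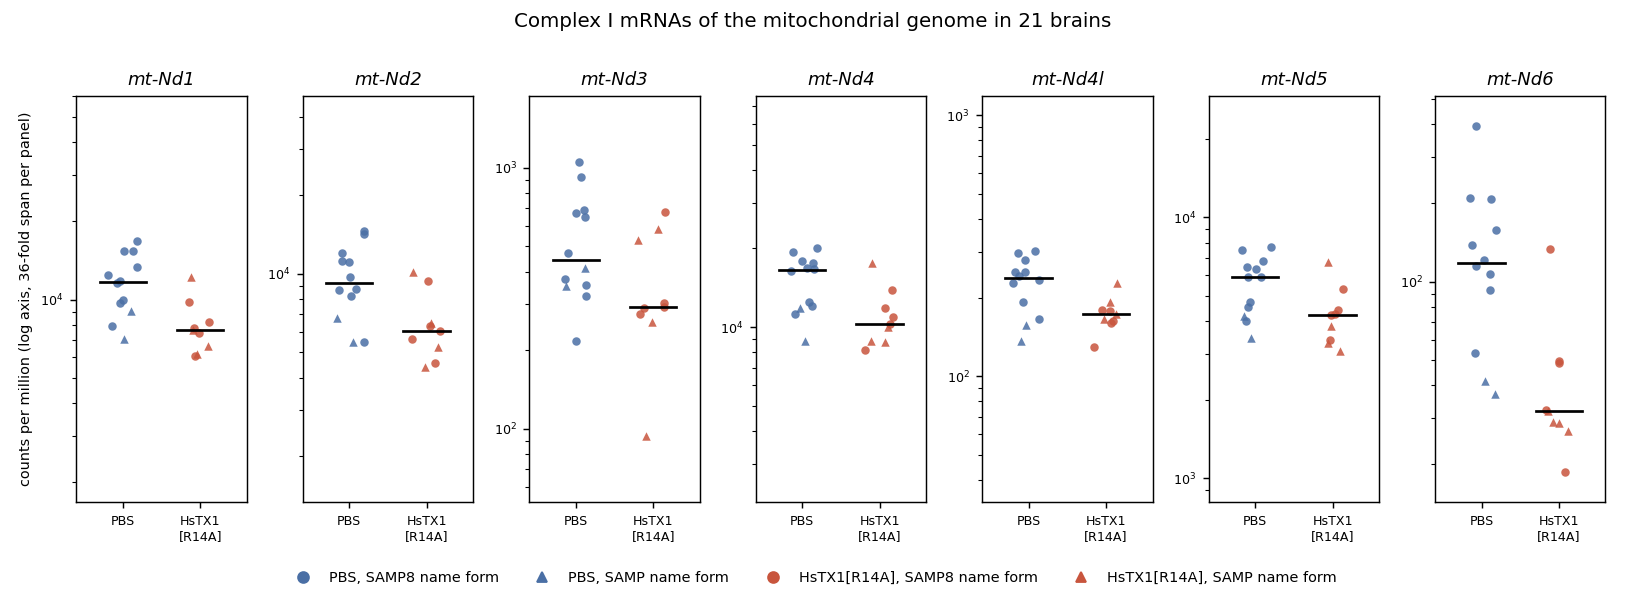
CPM of each member (log axis, the same fold span in every panel) in 12 PBS and 9 HsTX1[R14A] mice. Points are mice, marker shapes are the name forms and bars are group medians. The groups overlap in every panel, and the medians lie farthest apart in mt-Nd6, at 117.9 and 32.05 CPM.

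Together the members took 2.69, 4.37 and 5.43% of all counts in PBS mice (lowest, median and highest) and 2.42, 3.04 and 4.52% in HsTX1[R14A] mice. In whole-brain RNA, fewer cells of a type and less RNA per cell cannot be told apart. mt-Nd1 had 7042, 11710 and 16710 CPM in PBS mice (lowest, median and highest) and 6072, 7613 and 12230 CPM in HsTX1[R14A] mice, where 8 of 9 mice lay below the PBS median. mt-Nd4 had 8813, 16490 and 20130 CPM in PBS mice and 8187, 10310 and 17560 CPM in HsTX1[R14A] mice. In no member did every HsTX1[R14A] mouse lie below every PBS mouse, a pattern of 0.0123% of all genes. In mt-Nd1 and mt-Nd4 the highest HsTX1[R14A] value was that of male 81, which lay inside the PBS range.

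mt-Nd2 had 5494, 9217 and 14610 CPM in PBS mice (lowest, median and highest) and 4409, 6052 and 10200 CPM in HsTX1[R14A] mice. mt-Nd5 had 3442, 5924 and 7711 CPM in PBS mice and 3087, 4232 and 6721 CPM in HsTX1[R14A] mice. Here too the groups overlapped, with 3 HsTX1[R14A] mice below every PBS mouse in each of these genes. mt-Nd4l, whose small product lies beside the proton-pumping subunits, had 136.7, 238.4 and 301.7 CPM in PBS mice and 129.8, 172.3 and 228.0 CPM in HsTX1[R14A] mice. Counted alone, it was the one member in which 9 of 9 HsTX1[R14A] mice lay below the PBS median, although only 1 lay below every PBS mouse. With Gm10222 added, the PBS median was 1053 CPM, and HsTX1[R14A] males 81, 93 and 88 lay above it. They had 1417, 1163 and 1064 CPM.

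mt-Nd3 had 217.7, 441.7 and 1053 CPM in PBS mice (lowest, median and highest) and 94.01, 293.0 and 674.4 CPM in HsTX1[R14A] mice. The lowest value was again male 81, whose mt-Nd1 and mt-Nd4 levels were the highest of its group. There mt-Nd3 had 5.35 counts per 1000 of mt-Nd4, against 12.98 to 84.21 over the PBS mice. With Gm28438 added, the same mouse had 1490 CPM, inside the HsTX1[R14A] range of 1298 to 3499 CPM, and the PBS mice had 1768 to 6480 CPM.

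mt-Nd6 varied most. In PBS mice it had 36.98, 117.9 and 395.5 CPM (lowest, median and highest), and in HsTX1[R14A] mice 18.68, 32.05 and 133.7 CPM. Of the 9 HsTX1[R14A] mice 6 lay below every PBS mouse, and 1, male 93, lay above the PBS median. The coefficient of variation among PBS mice was 70.7% for mt-Nd6 and 47.56% for mt-Nd3. It was 23.8 to 31.4% for the other members, and its median was 15.9% over the 3967 genes with a PBS mean of at least 50 CPM.

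As log2 differences, HsTX1[R14A] minus PBS with sex in the model (edgeR), mt-Nd6 stood at -1.65 (SE 0.43). The next was mt-Nd3 at -0.63 (SE 0.31), with mt-Nd2 also at -0.63 (SE 0.20). mt-Nd1 stood at -0.58 (SE 0.16), mt-Nd4 at -0.47 (SE 0.16), mt-Nd5 at -0.43 (SE 0.16) and mt-Nd4l at -0.40 (SE 0.14). In that fit 6 of 7 members, all but mt-Nd3, were called lower at a false discovery rate (FDR) of 0.05. This compares with 16.1% of all 16303 genes tested, and since this contrast chose them nothing is read from the count. Of the called members mt-Nd5 lay nearest the threshold, and mt-Nd3, the single member outside it, lay farther from it than mt-Nd5. The median of the 7 was -0.58, against -0.013 over all genes, and among the 4044 genes with a mean of at least 50 CPM none was more negative than mt-Nd6. With the copies added, mt-Nd3 stood at -0.98 (SE 0.24) and mt-Nd4l at -0.30 (SE 0.21), so that 6 of 7 members were again called lower, mt-Nd3 now among them and mt-Nd4l not, beside 16.1% of the genes.

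The count of calls moved with single mice. Without PBS male 90, HsTX1[R14A] female 98 or HsTX1[R14A] female 71, 2 of 7 members were called. Without PBS male 82 or HsTX1[R14A] male 88 it was 3 of 7. Over all genes, these fits called 2289, 3005, 3332, 5146 and 3121, in that order, of 16302 to 16305 tested. With all mice 5144 genes were called.

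Relative to its fellow members mt-Nd6 was lower in HsTX1[R14A] mice. This restates its larger difference, which was known when the set was chosen, and is no further result. Per 1000 counts of the other 6 together, PBS mice had 1.29, 2.71 and 6.66 counts of mt-Nd6 (lowest, median and highest), and HsTX1[R14A] mice 0.613, 1.17 and 3.41. All 6 mice of the SAMP name form, PBS mice included, had between 0.613 and 1.46. The 5 HsTX1[R14A] mice of the SAMP8 form had between 0.825 and 3.41. The PBS mice of this form had 36.98 and 41.54 CPM of mt-Nd6, below the 53.37 CPM of the lowest PBS mouse of the SAMP8 form.

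**Figure D2:**
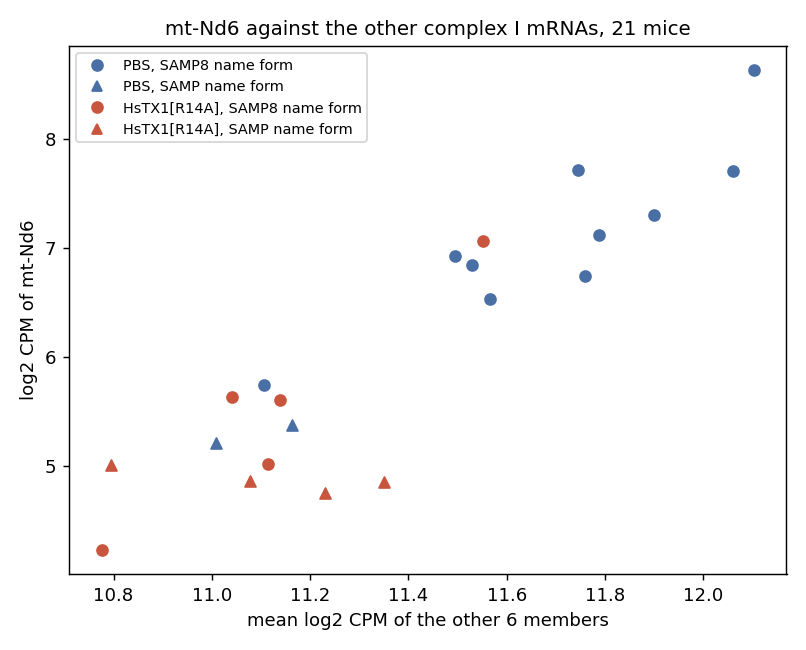
The log2 CPM of mt-Nd6 against the mean log2 CPM of the other 6 members in 21 mice, colored by treatment and shaped by name form. Among PBS mice the mean difference between the axes is -5.79 in the SAMP form (n = 2) and -4.58 (SD 0.54, n = 10) in the SAMP8 form. Among HsTX1[R14A] mice it is -6.24 (SD 0.33, n = 4) in the SAMP form and -5.61 (SD 0.78, n = 5) in the SAMP8 form, with overlapping ranges.

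The remaining products of the mitochondrial genome gave the same sign. Between treatments, mt-Cytb, the complex III subunit, stood at -0.69 (SE 0.18) on the log2 scale. The complex IV mRNAs mt-Co1, mt-Co2 and mt-Co3 stood at -0.85, -1.04 and -0.97 and the ATP synthase mRNAs mt-Atp6 and mt-Atp8 at -1.07 and -0.91. The ribosomal RNAs mt-Rnr1 and mt-Rnr2 both stood at -0.98 (SE 0.24 and 0.23). The heavy-strand complex I mRNAs, counted without their copies, had smaller estimates than the mRNAs of complexes IV and V, and mt-Nd6 a larger one. With Gm28438 added, mt-Nd3 stood at -0.98 (SE 0.24), among those of complexes IV and V, whose own copies were not searched. The order was not tested.

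The treatment differences took different values within the 2 name forms. Within the 15 SAMP8-form mice, log2 differences of HsTX1[R14A] minus PBS ran from -0.49 (SE 0.16) in mt-Nd5 to -0.73 (SE 0.22) in mt-Nd2 for the heavy-strand members and stood at -1.52 (SE 0.51) in mt-Nd6. Within the 6 SAMP-form mice they ran from -0.21 (SE 0.61) in mt-Nd3 to 0.31 (SE 0.17) in mt-Nd4l and stood at -0.38 (SE 0.12) in mt-Nd6. Called genes numbered 0 of 7 members and 0.00% of all genes in either subset (edgeR). At an unadjusted p under 0.05 there were 6 members and 35.6% of all genes in the 15 mice, and 1 member and 3.29% of all genes in the 6. With name form in the model, mt-Nd6 stood at -1.20 (SE 0.39), and 1 of 7 members was called lower beside 6.28% of all genes.

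**Figure D3:**
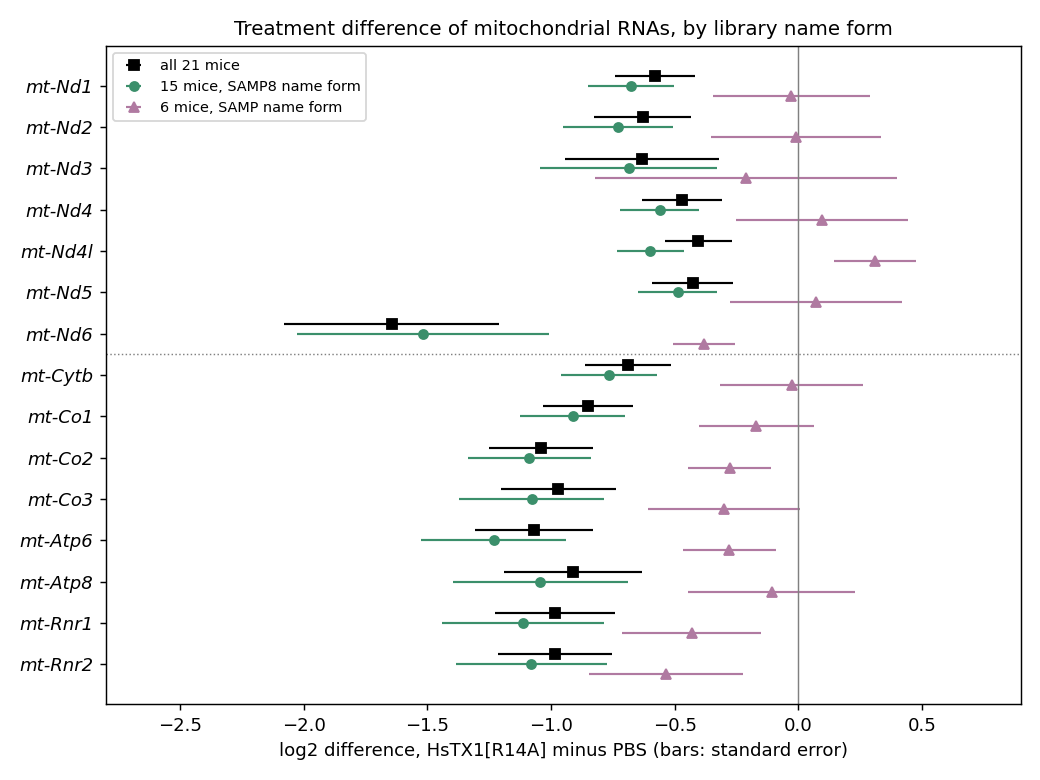
Log2 difference of HsTX1[R14A] minus PBS (bars, standard error) for the 7 members above the dotted line and the other mitochondrial RNAs below it, in all 21 mice and within each name form. In the 6 SAMP-form mice the members other than mt-Nd6 lie within -0.21 to 0.31.

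A treatment by name form term, added after seeing the data, tested that contrast. Between the forms, the treatment difference was less negative in the SAMP form for 7 of 7 members, from 0.53 (SE 0.72) in mt-Nd3 to 1.07 (SE 0.78) in mt-Nd6. The members vary together, so these are not 7 separate agreements, and the share of all genes with this sign was not computed. None of the 7, and 0.00% of the 16303 genes, passed the FDR threshold (edgeR). At an unadjusted p under 0.05 there were 438 genes (2.69%), of which 1 was a member, mt-Nd4l, at 0.95 (SE 0.24, adjusted p = 0.995).

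The name form itself was tested as well, but not independently of how the members were chosen. They were chosen on the treatment difference, and the SAMP form was more common among HsTX1[R14A] mice. A gene low in that form was therefore favored by the choice. All 7 were lower in the SAMP form with treatment and sex in the model, by log2 differences of -0.16 to -0.30 in the heavy-strand members. None of these 6 had an unadjusted p under 0.05, as 10.8% of all genes did. mt-Nd6 differed more, at -1.37 (95% interval -2.26 to -0.48), but did not pass the threshold with Benjamini-Hochberg adjustment over all genes (edgeR, adjusted p = 0.243). Members called numbered 0 of 7, beside 0.0491% of all genes. DESeq2 gave -1.38 with an adjusted p of 0.0314, and limma/voom -1.19 with one of 0.294.

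Levels were not called different between males and females. mt-Nd1 had a median of 9006 CPM in females and 9733 CPM in males, and mt-Nd6 one of 53.37 CPM in females and 71.02 CPM in males, with overlapping ranges. Male minus female, the log2 differences ran from -0.02 (95% interval -0.89 to 0.85) in mt-Nd6 to 0.30 (95% interval -0.35 to 0.94) in mt-Nd3. None of the 7 was called by edgeR, limma/voom or DESeq2, beside 0.0552% of all genes by edgeR. None had an unadjusted p under 0.05 by edgeR, beside 10.8% of all genes. The intervals for mt-Nd3 and mt-Nd6 do not exclude sex differences of considerable size, whereas that of mt-Nd4l, -0.19 to 0.37, is narrower.

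Treatment and sex together were tested by an interaction. In mt-Nd6 the treatment difference was -2.26 (SE 0.71) in females and -1.27 (SE 0.52) in males, and the difference between these, 0.99 (95% interval -0.73 to 2.72), did not pass the threshold. The interaction was positive, that is, the difference was less negative in males, in 7 of 7 members, with a median of 0.32 against 0.02 over all genes. The members vary together (median r = 0.84 over their pairs in PBS mice), so these are not 7 separate agreements. The female side rests on 3 treated mice. Called genes numbered 0 of 7 and 0.00% of all 16303, with 0 members and 270 genes (1.66%) at an unadjusted p under 0.05 (edgeR), and limma/voom and DESeq2 called 0 genes as well.

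Among PBS mice alone, which do not carry the treatment contrast, mt-Nd6 followed the heavy-strand members. Over the 12 mice it correlated most with mt-Nd2 (Pearson r = 0.937, permutation p = 2e-05, adjusted p = 0.00012, Spearman rho = 0.909, permutation p = 0.00012, adjusted p = 0.00072). Of the 6 pairs tested, 5 passed after Benjamini-Hochberg adjustment, with r from 0.737 (mt-Nd4) to 0.937. The share of all genes that would pass the same test was not computed. An r over 0.8 was reached by 3 of the 6 members, and by 2.137% of 13287 genes outside the mitochondrial genome. The pair with mt-Nd3 had r = 0.555 (permutation p = 0.0619, adjusted p = 0.0619) and rho = 0.643 (permutation p = 0.0269, adjusted p = 0.0269). Without the 2 mice farthest from the median mt-Nd6 level, r was 0.547 for mt-Nd4 and 0.904 for mt-Nd2, and within the 10 PBS mice of the SAMP8 form it was 0.523 and 0.916.

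Counted without its copy, mt-Nd3 had r = 0.043 to mt-Nd4, 0.077 to mt-Nd5, 0.124 to mt-Nd4l, 0.239 to mt-Nd1 and 0.524 to mt-Nd2 over the 12 PBS mice. With Gm28438 added, these became 0.418, 0.471, 0.596, 0.583 and 0.817, and the r of mt-Nd6 with mt-Nd3 became 0.819 (permutation p = 0.00108, adjusted p = 0.00162, rho = 0.860, permutation p = 0.00048, adjusted p = 0.00096). Over all 21 pairs of members, 15 had an adjusted p of at most 0.05 by permutation before the copies were added and 18 after. The share of pairs of other genes that would pass was not computed, so nothing particular to the members is read from these counts.

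**Figure D4:**
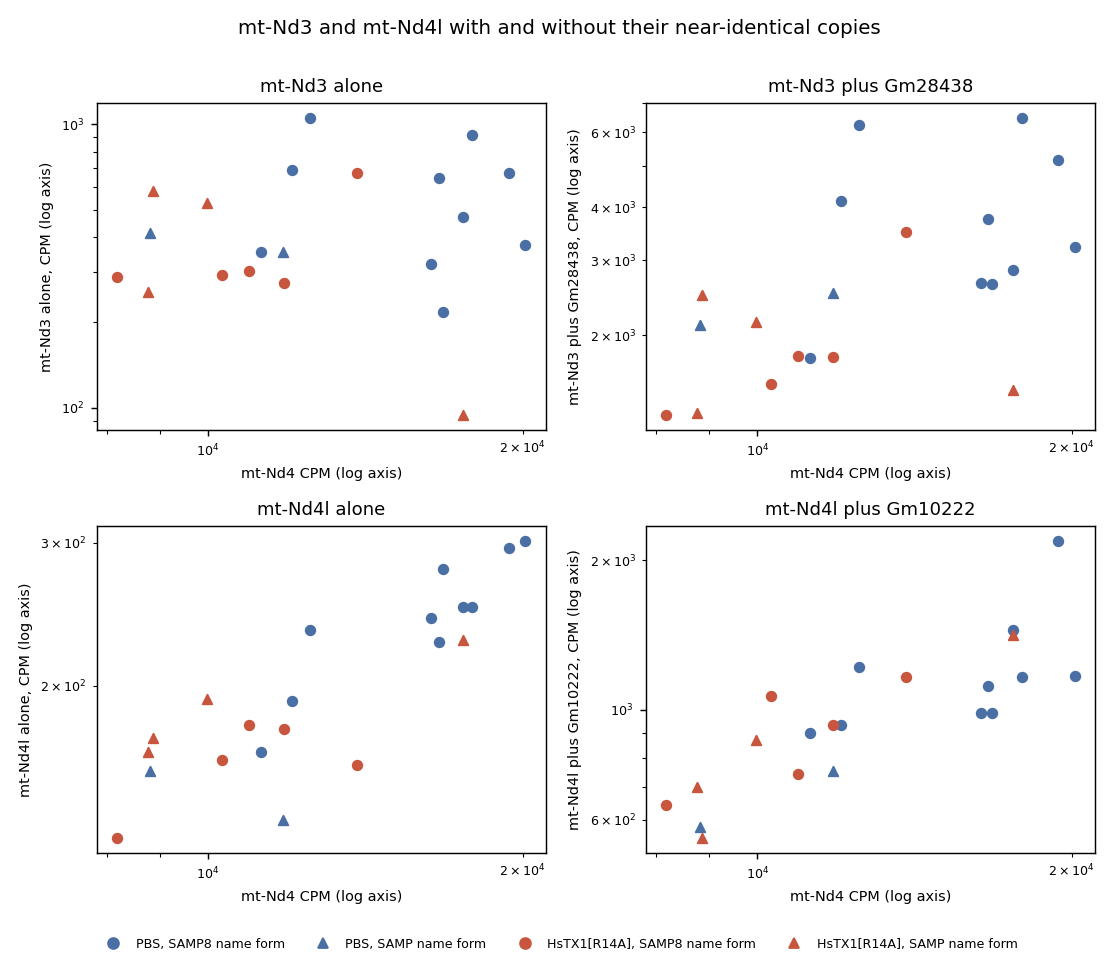
CPM of mt-Nd3 (upper row) and mt-Nd4l (lower row) against mt-Nd4 in 21 mice on log axes, alone (left) and with the near-identical copy added (right). Male 81, the lowest mt-Nd3 point at 94.01 CPM, lies at 1490 CPM once Gm28438 is added.

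Short transcripts as a class differed between the treatments, and the members are short, at 297 to 1824 bases. The 1987 nuclear protein-coding genes in this range had a median log2 difference of -0.28, and 32.4% of them were called lower, beside 16.1% of all genes. The 70 of them with 297 to 600 bases had a median of -0.59, beside -0.63 in mt-Nd3, -0.40 in mt-Nd4l and -1.65 in mt-Nd6, which lay below the 10th percentile of that bin, -0.84. The 672 with 600 to 1200 bases had a median of -0.40, beside -0.58 in mt-Nd1 and -0.63 in mt-Nd2. The 1248 with 1200 to 1824 bases had a median of -0.21, beside -0.47 in mt-Nd4 and -0.43 in mt-Nd5. Counted without copies, each member except mt-Nd4l thus stood below the median of its bin, by least in mt-Nd3 and by most in mt-Nd6. With the copies added, mt-Nd3 stood at -0.98, below the 10th percentile of its bin, and mt-Nd4l at -0.30, above the median. With each library's length slope in the model, the log2 differences between treatments were -0.70 in mt-Nd6, -0.46 in mt-Nd1, -0.43 in mt-Nd4 and 0.23 in mt-Nd3, and 0 of 7 members and 0.00% of all genes were called, with 2 members and 11.4% of all genes at an unadjusted p under 0.05 (edgeR). The part of the length slope in the treatment differences was not tested.

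The length slope is fitted over all genes, whose median length is 3283.5 bases, and the members are shorter. A short gene is therefore favored to fall along it, and no r of other short genes was computed beside those of the members. Across the 12 PBS mice mt-Nd3 fell with the length slope (Pearson r = -0.909, permutation p = 5e-05, adjusted p = 0.00035, Spearman rho = -0.902, permutation p = 0.00018, adjusted p = 0.00126). mt-Nd6 had r = -0.657 (permutation p = 0.0207, adjusted p = 0.0532) and rho = -0.762 (permutation p = 0.00582, adjusted p = 0.0204). mt-Nd2 had r = -0.648 (permutation p = 0.0228, adjusted p = 0.0532) and rho = -0.692 (permutation p = 0.0157, adjusted p = 0.0366). For mt-Nd1, mt-Nd4, mt-Nd4l and mt-Nd5 r lay between -0.348 and -0.167, with adjusted p-values of 0.434 to 0.605 by permutation over the 7 relations. Their rho lay between -0.504 (mt-Nd1) and -0.273 (mt-Nd4l), with adjusted p-values of 0.172 to 0.393 by permutation. Without the 2 mice farthest from the median slope, r was -0.823 for mt-Nd3 and -0.618 for mt-Nd6, and within the 10 PBS mice of the SAMP8 form it was -0.903 and -0.668. Counted without copies, the weakest relation was by r that of mt-Nd4 (1378 bases), and by rho that of mt-Nd4l (297 bases). With Gm10222 added, mt-Nd4l had r = -0.385 (permutation p = 0.217, adjusted p = 0.375) and rho = -0.608 (permutation p = 0.0402, adjusted p = 0.0704). With Gm28438 added, mt-Nd3 had r = -0.943 (permutation p = 1e-05, adjusted p = 7e-05).

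**Figure D5:**
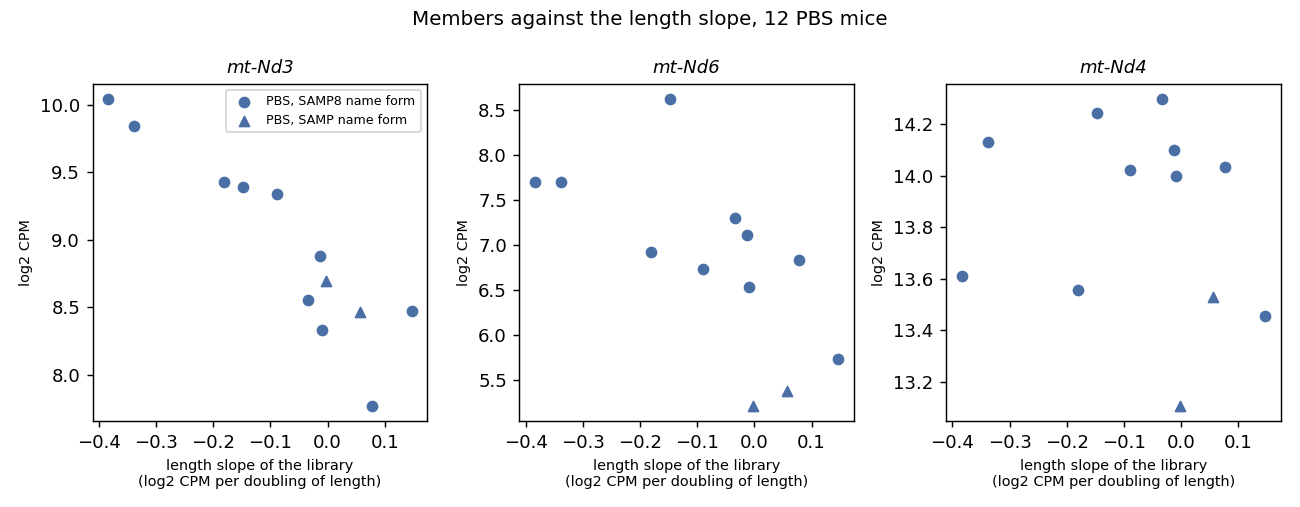
The log2 CPM of mt-Nd3, mt-Nd6 and mt-Nd4 in the 12 PBS mice against the length slope of the library, shaped by name form. mt-Nd3 declines along the axis (r = -0.909), mt-Nd6 less closely (r = -0.657), and mt-Nd4 shows little relation (r = -0.167).

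Among the nuclear genes for complex I, the accessory subunits were mostly called lower in HsTX1[R14A] mice, and most core subunits and assembly factors were not called. These counts stand beside the 16.1% of all genes called lower. Among nuclear protein-coding genes of 297 to 600 bases, 47.1% were called lower, with a median of -0.59. Of those with 600 to 1200 bases it was 43.2%, with a median of -0.40. The subunits were not compared with genes of their own length. Of 7 core subunits 2 fell and none rose, among them Ndufs8, which carries iron-sulfur clusters, at -0.52 on the log2 scale (SE 0.16, adjusted p = 0.0243, edgeR). Ndufv2, of the NADH-binding part, fell by 0.51 on the log2 scale (SE 0.17, adjusted p = 0.0294). Of the 29 accessory subunits that were measured, 23 fell, with a median of -0.51 over all 29, and examples were Ndufb3 at -0.53 (SE 0.14) and Ndufv3 at -0.55 (SE 0.12). Of 15 assembly factors 5 fell, among them Ndufaf2 at -0.61 (SE 0.19) and Tmem126b at -0.27 (SE 0.09), and none rose.

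Genes for mitochondrial transcription and RNA handling moved both ways. Of 11 transcription and DNA maintenance genes 7 fell and 1 rose. Tfam, which packages and activates the genome, fell by 0.34 on the log2 scale (SE 0.11, adjusted p = 0.0269, edgeR), and the polymerase Polrmt stood at 0.39 (SE 0.15, adjusted p = 0.0561). Mterf2 and Mterf3, of the mitochondrial termination factor family, fell by 0.50 (SE 0.13) and 0.41 (SE 0.11). Of 16 RNA processing and stability genes 6 fell and 1 rose. Lrpprc and Slirp encode partners in one complex that stabilizes mitochondrial mRNAs, and they moved in opposite directions, Lrpprc at 0.44 (SE 0.11, adjusted p = 0.0164) and Slirp at -0.62 (SE 0.18, adjusted p = 0.0203). Of 2 genes whose products are known to act on mt-Nd6 RNA, Grsf1 fell by 0.14 (SE 0.05, adjusted p = 0.0384), and Fastk stood at -0.11 (SE 0.07, adjusted p = 0.249). For none of the 5 nuclear lists was a gene called for sex. With each library's length slope in the model, no gene of the table was called for treatment, these included.

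Cell type markers were counted beside a background of 31.6% of all genes called for treatment in either direction. The summed level of 5 neuron markers was 3327 to 6184 CPM in PBS and 4232 to 7064 CPM in HsTX1[R14A] mice, and 1 of the 5 rose. For 4 oligodendrocyte markers the sums were 3218 to 4741 and 2360 to 3655 CPM, and 2 fell, as did 2 of 4 astrocyte markers. Of 4 microglia markers 1 fell, of 3 endothelial markers 1 rose, of 4 muscle and liver markers 1 fell, and none of the choroid plexus, red blood cell or pituitary markers was called. The part of cell type composition in the members' differences was not tested.

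The genes whose log2 CPM over the 12 PBS mice was most like that of mt-Nd6, other mitochondrial genes left out, were 9930021J03Rik (r = 0.944), 1700084C01Rik (r = 0.940), Zfp729a (r = 0.934), Lin9 (r = 0.934) and Gm13341 (r = 0.934). They are given as a description, without a test, and in the 9 HsTX1[R14A] mice the same 5 had r from -0.22 to 0.73. For the mean of the other 6 members the nearest were Gm28661 (r = 0.935), 9930021J03Rik (r = 0.935), Zfp729a (r = 0.930), Hapln1 (r = 0.927) and Gm10925 (r = 0.921). Gm28661 and Gm10925 kept r at 0.940 and 0.919 in the HsTX1[R14A] mice, and the others lay between 0.30 and 0.60. Gm28661 (681 bases) and Gm10925 (678 bases) had PBS means of 16990 and 12240 CPM. Near-identical copies were searched for the members only. Whether Gm28661 and Gm10925 take counts of other mitochondrial RNAs was not tested.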

How the data were processed

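STAR alignment to GRCm38 and Salmon quantification gave the estimated counts per gene that the authors deposited without normalization. They were rounded here to whole numbers. The deposited table also holds the authors' fold changes and p-values, which were not used, and 53 per-sample columns (37 of CPM and 16 of counts) that were not used. The sample labels name a SMARTER kit and the paper's methods an MGI directional kit. filterByExpr kept 16303 of 16318 genes. After TMM scaling, the quasi-likelihood test of edgeR 4.0.16 under R 4.3.3 was fitted to sex plus treatment, with Benjamini-Hochberg adjustment over all genes and an FDR threshold of 0.05. Standard errors are the log2 difference divided by the square root of F. CPM values are TMM-scaled, and log2 CPM carries a prior count of 2. The members and lists were chosen with earlier results of these data known. Named genes were the members, the other mitochondrial RNAs, copies matching a member over at least 100 bases at 90% identity (BLAST+ 2.17.0 against GENCODE transcripts), the 2 called genes with the smallest p in each nuclear list, 6 fixed mitochondrial regulators (Lrpprc, Slirp, Grsf1, Fastk, Tfam and Polrmt) and the 5 genes most correlated with mt-Nd6 or with the mean of the others. Sequences come from the GENCODE transcripts of GRCm38. Correlations were tested by 100000 permutations, two-sided, and 1e-05 is the smallest p they can give. The sources do not describe separate cultures or litters, and each library is 1 mouse. At least 486 counts per member and mouse keep the error from counting itself small. The spread within a group holds differences between mice and between libraries, which 1 library per mouse cannot separate. The counts of mt-Nd3 and mt-Nd4l also carry the uncertain assignment between them and their copies. The 48 pairs of mice of 1 group had a mean chi-square per gene of at least 7.58, and within a group each mouse was counted as 1 sample. Tested on data simulated for the treatment comparison, 167 of 200 genes changed 2-fold were recovered with 8 false calls among 16290 genes. Each gene was drawn independently, with no difference in length slope or name form between treatments. False calls from such differences are therefore not covered by it. Alternatives were limma/voom 3.58.1, DESeq2 1.42.0, RLE scaling, TMM over nuclear genes, other count filters, other covariates, sample quality weights, 1 surrogate variable (sva 3.50.0), subsets by name form, and omission of each mouse in turn.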

Additional observations from a re-analysis of the deposited data

Results flagged for a closer look

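In the 6 HsTX1[R14A]-treated males, mt-Nd6 of male 93 (133.7 CPM) stood apart from the rest, the next highest being 49.61 CPM, by Dixon's criterion for a single extreme value. This was 1 of 27 checks of groups of 6 mice, where chance gives about 1 in 20, or 1.35 here. The same library had a length slope of -0.142, the lowest of the HsTX1[R14A] libraries, and the highest mt-Nd3 level of its group, 674.4 CPM. Without this mouse the log2 difference of mt-Nd6 between treatments was -2.02, and 6614 genes were called for treatment in place of 5144. The part of the length slope in this value was not tested.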

How the results depend on the processing

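One limit is that the 21 mice were unevenly spread over treatment, name form and length slope, and the parts of these in the treatment differences were not separated. Genes called for treatment numbered 5144, and 2984 without the sex term, 1999 with name form in the model, 13 with 1 surrogate variable and 0 with the length slope or within the 15 or the 6 mice of a name form. Members called for treatment numbered 6, 1 with name form in the model and 0 with 1 surrogate variable, with the length slope and within either name form. Leaving out 1 mouse gave 2289 (PBS male 90) to 6614 genes (HsTX1[R14A] male 93) and 2 to 6 members. Genes called for sex numbered 9, and 26 with DESeq2, 1 with at least 10 counts in every mouse and 2582 with sample quality weights (7 to 11 with 1 mouse left out), while 0 members were called in any of these fits. Genes called for name form numbered 8, and 3 with limma/voom, 182 with DESeq2, 5 with at least 10 counts in every mouse, 199 with the length slope, 600 with 1 surrogate variable and 1027 with quality weights (0 to 12 with 1 mouse left out). The treatment difference turned positive for mt-Nd3 with the length slope (0.23) or 1 surrogate variable (0.0662), and within the 6 SAMP-form mice for mt-Nd4 (0.10), mt-Nd4l (0.31) and mt-Nd5 (0.0725). The sex difference changed sign for mt-Nd3 with the same settings (-0.12 and -0.0623), for mt-Nd4l with its copy added (-0.0681), and for mt-Nd6 with limma/voom (0.0671), quality weights (0.0554) and the 15 SAMP8-form mice (0.0536), with -0.24 to 0.32 as the range with 1 mouse left out. The r of mt-Nd4 with the length slope was 0.0141 within the 10 PBS mice of the SAMP8 form. The cause of these changes was not tested. The interaction with sex called 0 genes in all 12 other settings and with each mouse left out. RLE scaling and scaling on nuclear genes moved the median of all genes by less than 0.1 on the log2 scale. No paired analysis was possible because mouse numbers are not shared between groups.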
